A study of Mus musculus with 12 samples.

Results

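Neutrophils are short-lived leukocytes that leave the blood for injured or infected tissue. Chemokine, growth factor and formyl peptide receptors on their surface guide them there, and granules packed with iron-binding and matrix-cutting proteins are released on arrival. They gather in the crypts and lamina propria of the inflamed colon, and calprotectin, a protein of their cytosol, is measured in stool as a sign of colitis. Granule proteins such as lactoferrin and the neutrophil collagenase are transcribed mainly while the cells mature in bone marrow, whereas the surface receptors are transcribed in mature cells as well.

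A set of 10 genes of this kind was followed here. They were chosen among the 991 features that the deposited files list, with earlier results of these data known. The set holds the receptors Csf3r, Cxcr2, Fpr1, Fpr2 and Clec4d, the cytosolic calcium-binding protein gene S100a8, the granule protein genes Ltf, Ngp and Mmp8, and Retnlg, the gene of a secreted resistin-like protein. All 10 are annotated as protein-coding. Of the 912 features listed for both Control and DSS, 8 belong to the set, and Ngp and Mmp8 are not among them. Of the 95 features listed for DSS-BXD-H, 3 belong to it (Retnlg, Ngp and Mmp8), and of the 8 listed for DSS-BXD-L, 0. Retnlg was thus the single gene of the set with values in 3 groups.

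The RNA came from mouse colon, with 3 libraries in each of the 4 groups. Control mice were given distilled water. DSS mice were given dextran sulfate sodium, a sulfated polysaccharide that damages the colon lining, at 2.5% for 5 days and then water for 5 days, in 3 cycles. DSS-BXD-L and DSS-BXD-H mice went through the same cycles and received also the herbal decoction Banxia Xiexin (BXD) used in Chinese medicine, 7.60 g/kg daily for the low and 15.2 g/kg daily for the high dose. All groups but Control therefore carry the chemical injury. The labels name no strain, age or sex, and do not state that the libraries of a group came from separate mice. A p-value below therefore reflects only how far single libraries differed, and part of that could be technical. The description texts of 2 libraries, Control replicate 3 and DSS replicate 3, name the DSS and the DSS-BXD-L treatment, against their titles and treatment labels. Groups follow the titles.

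Values are FPKM, fragments scaled to gene length and to library size, so levels may be compared between genes on that scale. Low values were spaced in steps of whole fragments, which gave library totals between 12420000 and 19160000 fragments for the 9 Control, DSS and DSS-BXD-H libraries. At least 89.0% of the low values used for this came out whole in each library. Each total rested on 178 to 290 genes in Control and DSS, but on only 18 to 22 genes in DSS-BXD-H. Each Control value of the set rested on 0 to 39 fragments and each DSS value on 6 to 479. Of the 912 features, 868 had no overlap between the Control and DSS libraries and the group means of each feature differed by at least 1.87-fold, so the list is a selection of features that differ, and a call within it is not independent evidence. Of 19 colon epithelium markers 2 were listed for Control and DSS. Car4, a carbonic anhydrase of colonocytes, lay between 589 and 852 FPKM in Control, was lowest in DSS replicate 2 at 72.9 and stood at 230 and 369 FPKM in DSS replicates 1 and 3. In bulk tissue, more neutrophils and more RNA per neutrophil cannot be told apart.

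All 8 genes had their 3 DSS libraries above their 3 Control libraries, as had 77.4% of the 912 listed features. Limma's moderated test on log2(FPKM + 1) used, for each feature, those of the 12 libraries that list it, with no filter on low values. In this test 5 of the 8 rose (Csf3r, Fpr1, S100a8, Retnlg and Ltf, the last with a turned sign after centring of the libraries) and 0 fell. The other 3, Cxcr2, Clec4d and Fpr2, did not pass the threshold of 0.05 after Benjamini-Hochberg adjustment over the 912 features. Among all listed features 96.2% passed, 77.6% as rises, so the share of the set that passed lay below the background. The median log2 change was 1.19 over the 8 genes and 0.67 over the 912 features. The height of the rise differed greatly between DSS libraries. DSS replicate 2 held the highest value of each of the 8, of 53% of listed features and of 61% of those called higher in DSS. In DSS replicate 3, 7 of the 8 were lowest. The summed FPKM of the 8 genes was 1.89 to 2.33 in Control and 15.6, 57.8 and 8.55 in DSS replicates 1, 2 and 3. The smallest p an exact permutation test of 3 against 3 libraries allows is 0.10, and each of the 8 genes reached it.

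**Figure D1:**
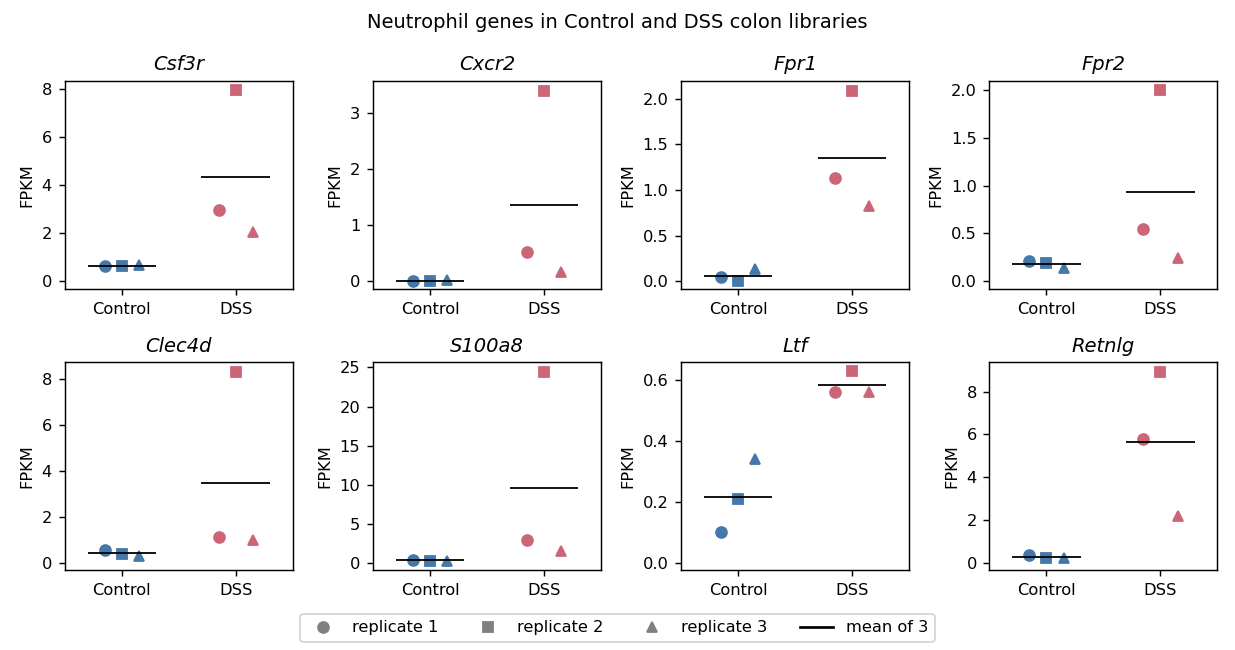
FPKM of the 8 genes in each Control and DSS library, 1 panel per gene with its own linear axis; symbols mark replicates and the line is the mean of 3. The square of DSS replicate 2 is the top point in every panel, and for Ltf it lies close to the other DSS libraries (0.63 against 0.56 FPKM).

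Promoter sequences of some genes of the set are shown as a description, and any link of the promoters to the levels was not tested. They were taken from RefSeq (GRCm38.p6, which shares the coordinates of mm10), where all 10 genes had an entry, and run 5′ to 3′ up to the earlier of the RefSeq and GENCODE start sites. Capitals mark matches to a motif of C/EBP factors (TTNNGNAA) or of PU.1 (GAGGAA), searched on both strands. These are transcription factor families of myeloid cells, and a match is a run of letters and not a measured binding site.
S100a8 (chr3:90668821-90668977, + strand): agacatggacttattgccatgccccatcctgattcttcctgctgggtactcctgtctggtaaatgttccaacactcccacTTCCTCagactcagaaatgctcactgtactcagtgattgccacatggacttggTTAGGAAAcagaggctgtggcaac
Cxcr2 (chr1:74153744-74153988, + strand): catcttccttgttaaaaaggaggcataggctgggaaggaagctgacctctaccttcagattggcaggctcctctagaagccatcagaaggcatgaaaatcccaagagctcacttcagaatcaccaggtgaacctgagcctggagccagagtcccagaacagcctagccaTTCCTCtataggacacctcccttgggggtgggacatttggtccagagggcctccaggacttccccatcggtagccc
Retnlg (chr16:48872358-48872607, + strand): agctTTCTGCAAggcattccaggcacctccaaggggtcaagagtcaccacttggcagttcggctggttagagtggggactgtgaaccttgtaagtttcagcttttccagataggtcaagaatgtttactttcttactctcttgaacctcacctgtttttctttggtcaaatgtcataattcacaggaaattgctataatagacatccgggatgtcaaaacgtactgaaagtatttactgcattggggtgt
Ngp (chr9:110419558-110419746, + strand): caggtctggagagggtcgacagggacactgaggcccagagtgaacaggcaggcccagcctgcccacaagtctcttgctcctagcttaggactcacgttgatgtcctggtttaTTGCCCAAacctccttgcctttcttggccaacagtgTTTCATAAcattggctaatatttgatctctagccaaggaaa
Mmp8 (chr9:7558179-7558428, + strand): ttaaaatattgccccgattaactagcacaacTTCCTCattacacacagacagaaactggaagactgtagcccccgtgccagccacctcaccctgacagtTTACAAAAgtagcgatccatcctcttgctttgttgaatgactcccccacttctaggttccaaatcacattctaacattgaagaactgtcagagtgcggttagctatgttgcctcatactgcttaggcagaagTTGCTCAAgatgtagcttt
S100a8 and Cxcr2 had the largest ratios of the highest to the lowest DSS library in the set (16.3 and 19.9), and the other 3 are the genes listed for DSS-BXD-H. By the SD of log2(FPKM + 1) in DSS, Clec4d (1.26) lay above Cxcr2 (1.01). In the 250 bases before the RefSeq start, 8 of the 10 genes held the C/EBP motif, against 36.8% of 32536 promoter windows of the same length, and Csf3r and Cxcr2 did not. The PU.1 motif was held by 7 of 10, against 23.4% of windows, and was not found for Retnlg, Fpr1 and Ngp. Some counted matches lie past the GENCODE start, inside the annotated gene. The only PU.1 match of Csf3r is such a match, 86 to 81 bases before the RefSeq start. So are a PU.1 match of S100a8 (36 to 31) and a C/EBP match of Ngp (11 to 4), which the sequences above do not reach. No match of one motif overlapped a match of the other in these 10 windows.

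Among the receptors, Csf3r had the highest mean FPKM in Control and in DSS. Csf3r, on chromosome 4 from 126024550 to 126044440 (mm10), encodes the receptor for granulocyte colony-stimulating factor, which drives the production and survival of neutrophils. It stood at 0.65, 0.65 and 0.67 FPKM in Control replicates 1, 2 and 3, or 34, 39 and 39 fragments. In DSS it stood at 2.98, 7.98 and 2.07 FPKM, or 166, 479 and 143 fragments. The groups did not overlap, and even the lowest DSS library held more than 3 times the fragments of any Control library. The log2 change was 1.53 (SE 0.37, limma adjusted p = 0.00838), and the ratio of means was 6.61. Without DSS replicate 2 the log2 change was 1.08 and the call was kept (limma adjusted p = 0.00673).

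Cxcr2, on chromosome 1 from 74153989 to 74161246, encodes the receptor through which Cxcl1, Cxcl2 and Cxcl5 draw neutrophils out of marrow and blood. In Control it was listed at 0 FPKM in replicates 1 and 2 and at 0.02 in replicate 3, a single fragment over 3 libraries. With 3 fragments as the limit that a count of 0 allows, replicates 1 and 2 could hold up to 0.0684 and 0.0591 FPKM (counting error only). The DSS libraries stood at 0.53, 3.39 and 0.17 FPKM, or 25, 172 and 10 fragments, so that the highest was 19.9 times the lowest. All 3 lay above Control and above the limit. The log2 change of 0.98 (SE 0.42) missed the threshold by little (limma adjusted p = 0.0520). Its size depended on the pseudocount, with 2.98 at a pseudocount of 0.1 (limma adjusted p = 0.00838). With the Control and DSS libraries alone it passed (limma adjusted p = 0.0467), and after centring it was 0.33 (limma adjusted p = 0.477). Of 13 alternative fits of Cxcr2, 6 passed and 7 did not. Leaving out DSS replicate 2 lowered the change from 0.98 to 0.41 and brought it past the threshold, with an SE of 0.11 (limma adjusted p = 0.0149). Without DSS replicate 1 (1.17) or DSS replicate 3 (1.36) it passed too (limma adjusted p = 0.0496 and 0.0194). Without Control replicate 1, 2 or 3 it did not pass (limma adjusted p = 0.0867, 0.112 and 0.0945).

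Fpr1 and Fpr2 are neighbours on chromosome 17, from 17876471 to 17883940 and from 17887824 to 17893952. They encode formyl peptide receptors, which sense peptides released by bacteria and by damaged mitochondria and are carried by monocytes as well as neutrophils. Fpr1 was listed at 0.05, 0 and 0.14 FPKM in Control, 1, 0 and 3 fragments, where the 0 allows up to 0.136 FPKM. In DSS it stood at 1.13, 2.09 and 0.83 FPKM, or 23, 46 and 21 fragments. It rose by 1.11 on the log2 scale, with an SE of 0.19 and the smallest adjusted p of the 8 genes (limma, 0.00622). The call was kept whichever single library was left out, with log2 changes from 0.89 to 1.27.

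Fpr2 stood at 0.21, 0.19 and 0.14 FPKM in Control, 4, 4 and 3 fragments, and at 0.55, 2.0 and 0.24 FPKM in DSS, 11, 43 and 6 fragments. DSS replicate 3 lay 2 fragments above the highest Control library and the groups came close to touching. The log2 change was 0.60 (SE 0.29, limma adjusted p = 0.0704), and it turned to −0.04 after centring. It was 0.23 without DSS replicate 2 and passed without DSS replicate 3, at 0.87 (limma adjusted p = 0.0209). In GENCODE the span of Fpr2 overlaps that of Fpr3 on the same strand, from 17887852 to 17971677, and the receptors of this family resemble each other, so reads of Fpr2 are uncertain. The paired genes differed in which call they received, but the difference between them was not tested.

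Clec4d, on chromosome 6 from 123262111 to 123275265, encodes a C-type lectin receptor of myeloid cells that recognises microbial glycolipids and is also found on monocytes and macrophages. It stood at 0.57, 0.38 and 0.31 FPKM in Control, 13, 10 and 8 fragments. The DSS values were 1.14, 8.31 and 0.98 FPKM, 28, 221 and 30 fragments. A single library therefore stood apart, at 7.84 times the mean of the other two. The log2 change of 1.27 (SE 0.54) did not pass (limma adjusted p = 0.0505). It passed without DSS replicate 1 (1.60), DSS replicate 2 (0.54) or DSS replicate 3 (1.66), with limma adjusted p = 0.0363, 0.0115 and 0.0317. Without Control replicate 1, 2 or 3 it did not pass (limma adjusted p = 0.0712, 0.112 and 0.107).

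S100a8 had the highest mean of the set in DSS and the largest SD there (9.61 ± 12.9 FPKM, n = 3). It lies on chromosome 3 from 90668978 to 90670035 and encodes a subunit of calprotectin, the most abundant protein of the neutrophil cytosol, which binds calcium and withholds zinc and manganese from microbes. Control libraries held 0.4, 0.26 and 0.27 FPKM, 4, 3 and 3 fragments. DSS libraries held 2.9, 24.4 and 1.5 FPKM, 31, 282 and 20 fragments. DSS replicate 2 supplied 84.7% of the summed DSS FPKM and was 11.1 times the mean of the other two, yet those also lay above every Control library. The log2 change was 2.26 (SE 0.75, limma adjusted p = 0.0211). It was 1.25 (SE 0.21, limma adjusted p = 0.00699) without DSS replicate 2. The call was lost without Control replicate 2 or Control replicate 3, each with a log2 change of 2.24 (limma adjusted p = 0.0581 and 0.0526).

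Ltf had another pattern than the other 7 genes. It lies on chromosome 9 from 111019271 to 111042767 and encodes lactoferrin, an iron-binding protein of the specific granules that glandular epithelia also secrete. Its Control values were 0.1, 0.21 and 0.34 FPKM, 5, 12 and 19 fragments, and its DSS values 0.56, 0.63 and 0.56 FPKM, 30, 36 and 37 fragments. The DSS libraries were nearly level, the highest 1.12 times the lowest, where the same ratio was between 2.52 and 19.9 for the other 7 genes. Ltf also had the lowest mean of the set in DSS, and rank 5 of 8 in Control. Its log2 change was 0.38 (SE 0.10, limma adjusted p = 0.00937), and the call was kept whichever single library was left out (0.31 to 0.46), but the sign turned after centring (−0.26, limma adjusted p = 0.155).

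Retnlg lies on chromosome 16 from 48872621 to 48874496 and encodes a resistin-like protein made by neutrophils and their marrow precursors. It stood at 0.35, 0.2 and 0.21 FPKM in Control, or 3, 2 and 2 fragments. In DSS it stood at 5.8, 8.92 and 2.2 FPKM, or 53, 88 and 25 fragments. The log2 change was 2.26 (SE 0.90, limma adjusted p = 0.0335). This SE draws on the spread of the DSS-BXD-H libraries, which is large for Retnlg: in a fit of the Control and DSS libraries alone the SE was 0.38 (limma adjusted p = 0.00468). In the fit of all groups the call was lost without Control replicate 1 (2.32), Control replicate 2 (2.23), Control replicate 3 (2.24), DSS replicate 1 (2.17) or DSS replicate 2 (1.90), with limma adjusted p from 0.0553 to 0.102.

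The other 2 resistin-like genes of the same stretch of chromosome 16 went the opposite way. Retnlb, a goblet cell product (48816856 to 48818892), stood at 127, 21.4 and 4.52 FPKM in Control and at 1.3, 4.75 and 2.47 FPKM in DSS. Retnla (48842551 to 48844461), a product of alternatively activated macrophages and other cells, stood at 12.2, 21.45 and 12.7 FPKM in Control and at 2.92, 0.3 and 2.35 FPKM in DSS. On the log2 scale Retnla fell by 2.63 and Retnlb fell by 2.81 (limma adjusted p = 0.0061 and 0.0266), the latter with overlapping groups. In DSS replicate 2 Retnla was lowest and Retnlg highest of the DSS libraries. Near-identical stretches among these genes could share reads, which was not tested.

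**Figure D2:**
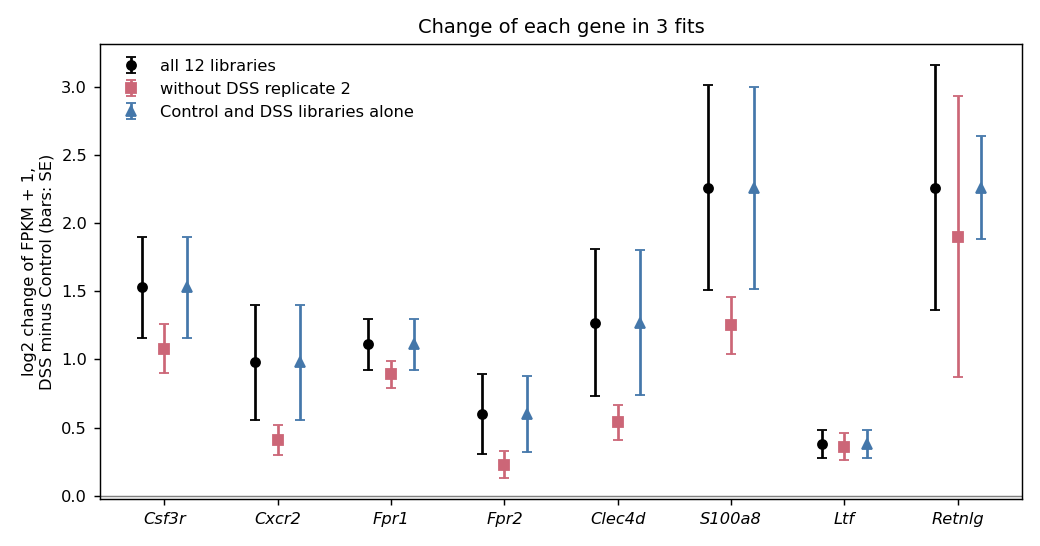
Log2 change of FPKM + 1 from Control to DSS with its standard error for each of the 8 genes, in the fit of all 12 libraries, without DSS replicate 2, and in the fit of the 6 Control and DSS libraries. Each gene was fitted on the libraries that list it. Without DSS replicate 2 the change of S100a8 goes from 2.26 to 1.25 and that of Clec4d from 1.27 to 0.54, while Ltf stays at 0.36 to 0.38; after centring, Fpr2 and Ltf lay below 0 (not drawn).

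The scaling and the labels bear on all 8 genes. Subtracting from each library its median over the listed features (centring) moved the median log2 change of all features from 0.67 to 0.02, in a list made mostly of rises. Relative to that median Fpr1 alone of the set stayed past the threshold (log2 change 0.46, limma adjusted p = 0.0465), Ltf and Fpr2 turned to −0.26 and −0.04, and the split of all calls went from 708 higher and 169 lower to 103 higher and 233 lower. Without the 2 libraries of conflicting description 4 of the 8 genes passed, beside 67.3% of all listed features, and Retnlg (2.69, limma adjusted p = 0.0723) was the one lost.

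Library by library, the ranking was shared. For 7 of the 8 genes the DSS libraries ranked replicate 3, replicate 1, replicate 2 from low to high. The same ranking was found for 33.8% of the 912 listed features and for 40.3% of those called higher in DSS. In 5 of the 8 (Csf3r, Cxcr2, Fpr2, Clec4d and S100a8) DSS replicate 2 was over 3 times the mean of the other two, as it was in 5.81% of listed features. S100a8, Cxcr2 and Clec4d held ranks 4, 6 and 9 among the 912 by this ratio. The median ratio was 4.11 over the 8 genes, 1.18 over all listed features and 1.27 over those called higher in DSS. DSS replicate 3, the lowest for 7 genes, is the library whose description names the low-dose decoction, and its part in the spread was not tested.

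The features whose values followed the set most closely were Adam12, Marco, Chil1, Ccn4 and Il20ra. Their Pearson correlation with the mean z-score of the 8 genes was 0.996 to 0.999 over the 6 Control and DSS libraries. Such values are common here, because the list was selected for the same 2 groups: the median correlation of the other 904 features was 0.83 and 309 exceeded 0.9. Adam12, the closest, stood at 0.07 FPKM in each Control library and at 0.82, 2.1 and 0.51 FPKM in DSS. Ccn4 stood at 0.37, 0.46 and 0.48 FPKM in Control and at 1.2, 2.93 and 0.86 FPKM in DSS. For Il20ra the values were 0.03, 0.05 and 0.03 FPKM and then 0.29, 0.57 and 0.17 FPKM. Adam12, Ccn4 and Il20ra belong to none of the gene lists used here. Marco, a scavenger receptor of macrophages, was listed at 0 in all 3 Control libraries and at 0.4, 1.19 and 0.24 FPKM in DSS. Chil1, a chitinase-like protein gene of neutrophils, macrophages and inflamed epithelium, stood at 0.17, 0.15 and 0.15 FPKM in Control and at 0.58, 1.48 and 0.47 FPKM in DSS.

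Other genes tied to neutrophils were taken from a list of 61, of which 16 were listed for Control and DSS. Of these, 15 rose and 0 fell, with a median log2 change of 1.00, beside 77.6% rises among all listed features. Many of them, such as Cybb, Fcgr4, Pirb and Csf2rb, are active in macrophages too. Mmp9, the gelatinase of neutrophil granules, stood at 0.27, 0.22 and 0.12 FPKM in Control and at 1.1, 5.18 and 1.06 FPKM in DSS (log2 change 1.32, limma adjusted p = 0.0151). Lrg1, a glycoprotein gene of neutrophils and other cells, went from 0.923 ± 0.102 to 3.62 ± 2.08 FPKM (mean ± SD, n = 3 per group; log2 change 1.18, limma adjusted p = 0.00941). Csf2rb, a subunit of the receptor for granulocyte-macrophage colony-stimulating factor, rose with a log2 change of 0.97 and Cybb, the oxidase subunit that makes superoxide, with one of 1.07. Chil3 did not pass, with 0.04, 0.11 and 0.08 FPKM in Control and 0.44, 1.22 and 0.19 FPKM in DSS (log2 change 0.54, SE 0.47, limma adjusted p = 0.279). Its groups did not overlap and its SE, like that of Retnlg, draws on the high-dose libraries: with Control and DSS alone the SE was 0.20 and Chil3 passed (limma adjusted p = 0.0295). Slpi, a protease inhibitor gene of neutrophils and epithelia, had the largest log2 change of the list, 2.75 (limma adjusted p = 0.00195), and Hp, the gene of haptoglobin, one of 1.66. The inhibitory receptor genes Lilr4b, Lilrb4a and Cd300lf rose by 1.19, 0.98 and 0.77 on the log2 scale, Csf2rb2 by 0.99 and Trim30b by 0.33, the last with overlapping groups. Lilr4b with Lilrb4a, and Csf2rb with Csf2rb2, are near-identical copies whose reads are uncertain. After centring 1 of the 16 stayed past the threshold, beside 103 of all 912 listed features called higher, and Chil1, Chil3 and Trim30b lay below 0. DSS replicate 2 was highest for 14 of the 16, beside 53% of all listed features and 61% of those called higher in DSS. The median ratio to DSS replicates 1 and 3 was 1.88, beside 1.18 and 1.27.

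Signals that recruit neutrophils made up a second list of 35 genes, 15 of them listed. Of these, 12 rose, 2 fell (Alox5 and Saa1) and Cxcl2 did not pass (log2 change 1.75, limma adjusted p = 0.0578), with a median log2 change of 1.42, beside 77.6% rises among all listed features. After centring 4 stayed higher and 2 lower, beside 103 higher and 233 lower of all 912 listed features, and Osm and Sele lay below 0. Among the mediators, C3, a complement component, rose by 1.66 on the log2 scale and Tnf by 1.10. Ptgs2, an enzyme of prostaglandin synthesis, rose with a ratio of means of 4.56 and overlapping groups (limma adjusted p = 0.0176). The ligands of Cxcr2 differed in their spread. Cxcl2 stood at 0, 0.09 and 0.06 FPKM in Control and at 1.35, 14.1 and 0.25 FPKM in DSS, and Cxcl5 at 0.45, 0.74 and 0.33 and then at 5.61, 22.4 and 3.39 FPKM. Cxcl1 stood at 0.19, 0.58 and 0.3 FPKM in Control and at 3.36, 2.41 and 2.14 FPKM in DSS. Cxcl2 and Cxcl5 thus had the high DSS replicate 2 seen for their receptor, and Cxcl1 was highest in DSS replicate 1. Selp and Sele, the endothelial selectins on which neutrophils roll, rose with log2 changes of 1.15 and 0.37 (limma adjusted p = 0.0292 and 0.0361; Sele turned to −0.28 after centring) and were also highest in DSS replicate 2. Vcam1, the endothelial ligand used mainly by lymphocytes and monocytes, rose (1.52) with DSS libraries at 13.9, 11.2 and 9.5 FPKM. In 8 of the 15 genes (Cxcl2, Cxcl5, Il1b, Saa3, Sele, Selp, Osm and Ccl3) DSS replicate 2 was over 3 times the mean of the other two, beside 5.81% of all listed features.

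**Figure D3:**
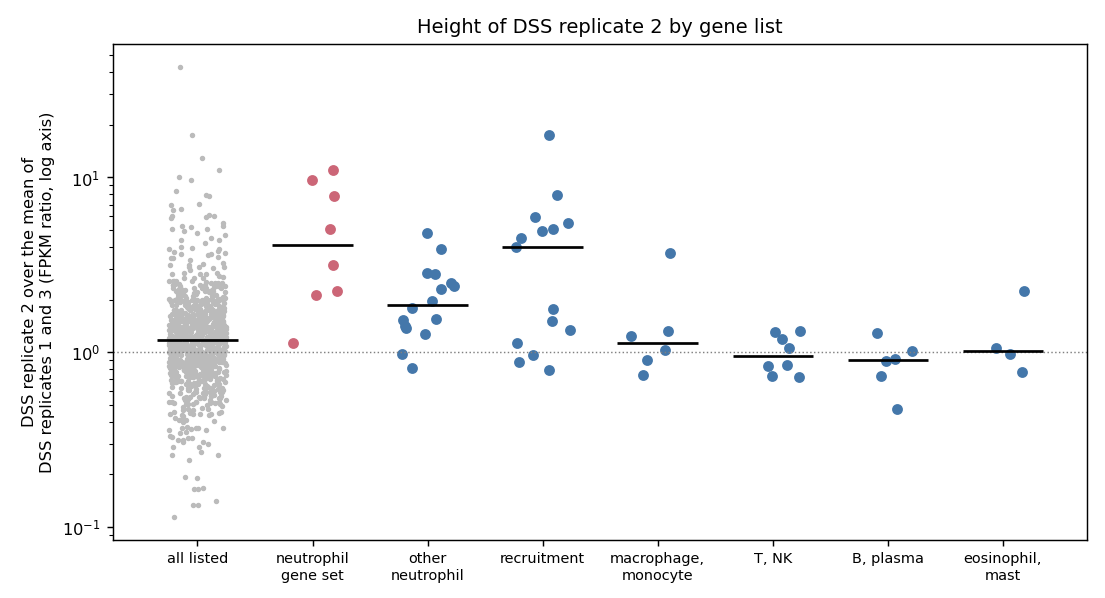
FPKM in DSS replicate 2 divided by the mean of DSS replicates 1 and 3, on a log axis, for all listed features (grey; 2 with no ratio above 0 are left out), the 8 genes of the set (red) and 6 gene lists (blue); lines are medians. The medians are 4.11 for the set and 4.03 for recruitment signals, and 0.901 to 1.13 for the lists of other leukocytes.

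Markers of other leukocytes were also higher in DSS, beside 77.6% rises among all listed features, and their median ratio of DSS replicate 2 to the other two was near 1. All 6 listed markers of macrophages and monocytes rose (of 23 in the list), with a summed FPKM of 18.9 to 26.3 in Control and 63.8, 54.4 and 50.8 in DSS replicates 1, 2 and 3. Cd68, Clec7a and Cx3cr1, which had the highest levels among them, were highest in DSS replicate 1, with Cd68 at 31.6, 25.6 and 24.8 FPKM in DSS. Marco, Ccr2 and Fcgr1 were highest in DSS replicate 2, at 3.72, 1.24 and 1.33 times the mean of the other two. All 8 listed T and NK cell markers (of 18) rose, with sums of 11.0 to 17.4 FPKM in Control and 31.1 to 42.7 in DSS. The 6 listed B and plasma cell markers (of 14) and the 4 listed eosinophil and mast cell markers (of 18) rose as well, with sums of 4937 to 6087 against 11505 to 17460 FPKM and of 1.01 to 1.48 against 3.56 to 4.78 FPKM. Il5ra, an eosinophil receptor subunit gene, was highest in DSS replicate 2 at 2.24 times the other two. After centring 2 of 6 macrophage and monocyte, 0 of 8 T and NK (limma), 3 of 6 B and plasma and 0 of 4 eosinophil and mast cell markers stayed higher. Of all 912 listed features 103 were then called higher and 233 lower. At an unadjusted limma p under 0.05, 2 T and NK and 0 eosinophil and mast cell markers were higher. Marco, Il2ra, Ccr3 and Cpa3 lay below 0 after centring, and Ccr3 was called lower (log2 change −0.33, limma adjusted p = 0.0438). The median ratio of DSS replicate 2 to the other two was 1.13 for macrophage and monocyte markers, 0.951 for T and NK, 0.901 for B and plasma and 1.02 for eosinophil and mast cell markers. Several genes of the set are also expressed by monocytes and macrophages, and the part of those cells in the rise was not tested.

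The comparison of DSS-BXD-H with DSS asks what the high dose of the decoction changed in the injured colon, and for this set it rests on Retnlg. Retnlg stood at 9.5, 64.5 and 226 FPKM in DSS-BXD-H replicates 1, 2 and 3, or 97, 696 and 1666 fragments, beside 5.8, 8.92 and 2.2 FPKM in DSS. The 3 high-dose libraries lay above all DSS and all Control libraries, replicate 1 only just above DSS replicate 2. The log2 change was 3.17 (SE 0.90, limma adjusted p = 0.00967 over the 19 features listed in both groups), with means of 100.1 ± 113 and 5.64 ± 3.36 FPKM (SD, n = 3 per group). Of those 19 features 94.7% passed, 73.7% as rises, so this list too is a selection. The DSS libraries serve both comparisons of Retnlg.

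The size of this difference turned on single libraries while the call did not. Without DSS-BXD-H replicate 3 the log2 change was 2.13 (limma adjusted p = 0.0229) and without DSS-BXD-H replicate 1 it was 4.35 (limma adjusted p = 0.000338). Without the 2 libraries of conflicting description it was 2.71 and did not pass (limma adjusted p = 0.0531). Centring on the 19 shared features moved the median change of all features from 0.76 to −0.26 and the split of calls from 14 higher and 4 lower to 2 higher and 4 lower, with Retnlg still higher (2.14, limma adjusted p = 0.0355).

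**Figure D4:**
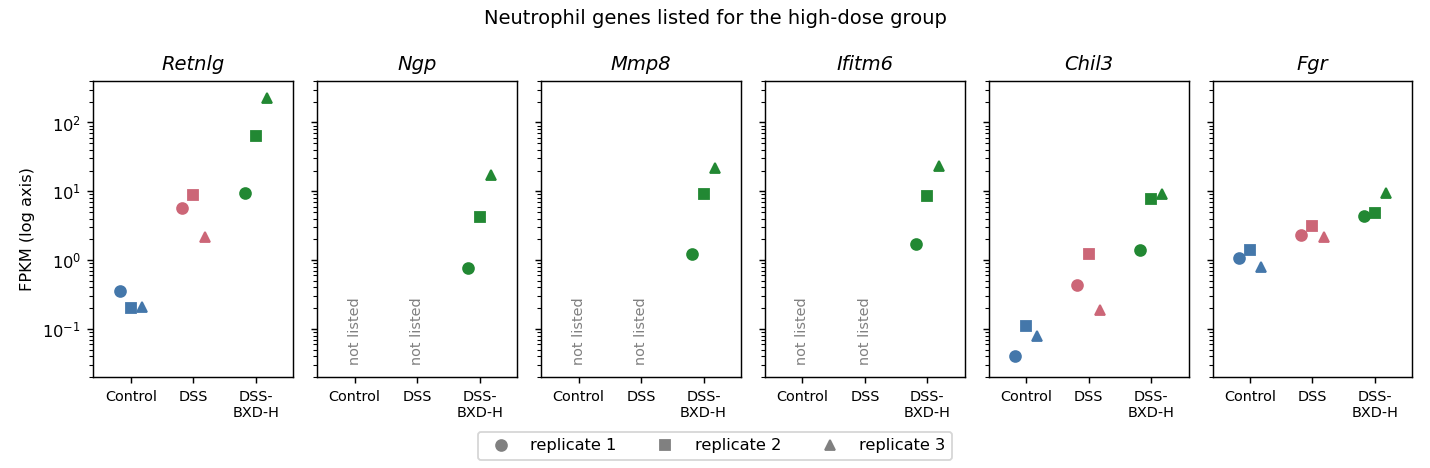
FPKM on a log axis of Retnlg, Ngp, Mmp8 and 3 further neutrophil-associated genes in each library of the groups that list them; symbols mark replicates. For all 6 genes DSS-BXD-H replicate 3 is highest and replicate 1 lowest, from 9.5 to 226 FPKM for Retnlg and from 4.3 to 9.59 FPKM for Fgr.

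Ngp and Mmp8 have values in the high-dose files alone, so they allow no comparison with DSS or Control. Ngp, on chromosome 9 from 110419747 to 110423012, encodes a cystatin-related granule protein made by maturing neutrophils in marrow. It stood at 0.76, 4.23 and 17.5 FPKM in DSS-BXD-H replicates 1, 2 and 3, or 16, 94 and 265 fragments. Mmp8, also on chromosome 9, from 7558456 to 7568485, encodes the neutrophil collagenase, which cuts fibrillar collagens. It stood at 1.22, 9.25 and 21.7 FPKM, or 51, 408 and 654 fragments. Both genes had the ranking of Retnlg, with replicate 1 lowest and replicate 3 highest, and SDs (8.81 and 10.3 FPKM) about as large as their means (7.48 and 10.7 FPKM). On the FPKM scale Retnlg was highest of the 3 genes in each high-dose library, and Mmp8 was above Ngp in each.

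These 3 genes headed the listed features by the ratio of DSS-BXD-H replicate 3 to replicate 1. The ratio of replicate 3 to replicate 1 was 23.8 for Retnlg, 23.0 for Ngp and 17.8 for Mmp8, ranks 1, 2 and 3 of the 94 features with a ratio, whose median was 1.4. By the highest over the lowest library, Ighv7-4, an antibody segment gene, came between Ngp and Mmp8 at 21.5, and by the SD of log2(FPKM + 1) Retnlg, Mmp8 and Ngp had ranks 2, 4 and 5 of 95. A ratio of replicate 3 to replicate 1 above 10 was found for 7 features (7.45%), the other 4 being Ighv1-12, Onecut2, Ifitm6 and Tarm1. Ifitm6, a myeloid membrane protein gene of the neutrophil list, stood at 1.73, 8.5 and 23.7 FPKM. The same ranking of libraries was seen in 36 of the 95 features (37.9%). By totals that rest on 18 to 22 genes each, DSS-BXD-H replicate 3 has the smallest library, 12420000 fragments against 17220000 and 18200000. The part of library size in these gaps was not tested.

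Further high-dose values belong to other neutrophil-associated genes. Chil3, a chitinase-like protein gene of neutrophils and macrophages, stood at 1.42, 7.78 and 8.98 FPKM in DSS-BXD-H and was higher than in DSS (log2 change 1.93, SE 0.47, limma adjusted p = 0.00575), though not past the threshold after centring (0.91, limma adjusted p = 0.0563). Fgr, a kinase of myeloid cells, stood at 4.3, 4.78 and 9.59 FPKM in DSS-BXD-H against 2.3, 3.16 and 2.16 FPKM in DSS (log2 change 0.97, limma adjusted p = 0.00993), which turned to −0.06 after centring. Alox5, the lipoxygenase that makes leukotrienes, stood at 0.83, 0.99 and 0.77 FPKM in Control, 0.36, 0.51 and 0.22 FPKM in DSS and 0.65, 0.79 and 1.39 FPKM in DSS-BXD-H (log2 change 0.50 against DSS, limma adjusted p = 0.0105), which turned to −0.53 after centring. C5ar1, the receptor of a complement fragment that attracts neutrophils, was listed for DSS-BXD-H alone, at 6.3, 7.63 and 14.97 FPKM.

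**Figure D5:**
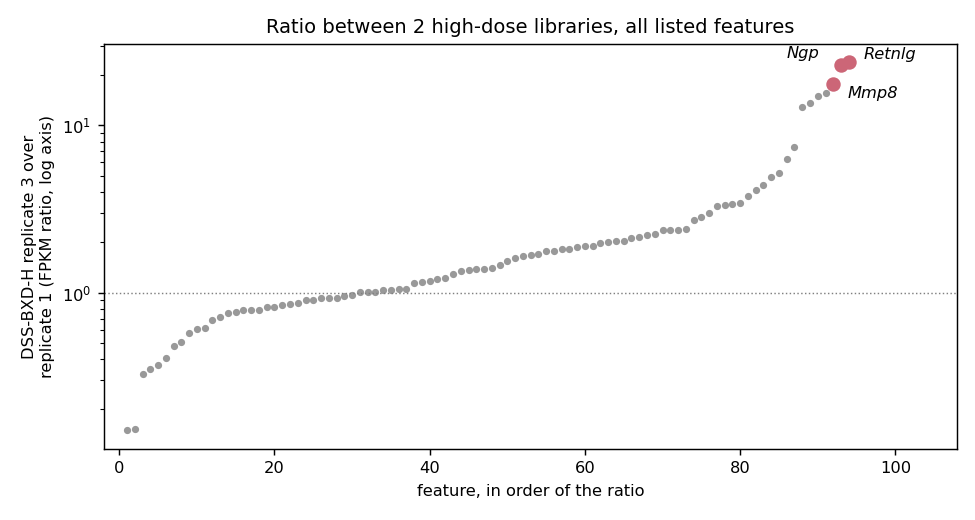
FPKM in DSS-BXD-H replicate 3 divided by that in replicate 1, on a log axis, for 94 listed features in order of the ratio. Retnlg, Ngp and Mmp8 (red) take the top 3 places, at 23.8, 23.0 and 17.8, against a median of 1.4.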

How the data were processed

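RNA-seq of mouse colon was analysed in 12 libraries, 3 per group. Per the labels' protocols, TRIzol served for extraction and a NEBNext Ultra kit for the libraries. The submitters' processing notes name bcl2fastq, FastQC and fastp and the build mm10. Not given in the sources used here: aligner, counter, use of strand, annotation and how features were selected. The authors deposited FPKM values with 2 decimals, per the file headers, and 981 of 991 features matched GENCODE M21 (GRCm38) by identifier.

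Values were fitted as log2(FPKM + 1) with limma (version 3.58.1, R 4.3.3; 1 mean per group, trended prior spread), each feature on the libraries that list it. Changes on this scale understate those of low genes. All listed features were kept, because a filter of at least 1 FPKM in 3 libraries would have passed only S100a8, Csf3r, Retnlg and Mmp8. The fit was also run on simulated data with the same spread in both groups. That setting differs from these libraries, so the run does not show how calls behave in this selected list. Library totals are those at which FPKM times exon length gave the most whole fragments (tolerance: rounding error plus 0.02 fragments), over genes with exons under 2600 bases. They assume GENCODE exon lengths, and DSS-BXD-L totals were not determined. At most 25 of 912 values were equal between libraries of the same group, so none was treated as a copy.

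Members, lists and tests were chosen with earlier results of these data known. Named are all members, the listed genes of the neutrophil and recruitment lists, up to 3 genes per list of other cells and the 5 most similar features. Retnla, Retnlb, Marco, Ccr2, Fcgr1, Il5ra, Il2ra, Ccr3, Cpa3, Ighv7-4, Ighv1-12, Onecut2 and Tarm1 were added after their values were seen. Alternatives covered pseudocount, filter, groups fitted, replicate block, centring, prior trend, conflicting labels and each replicate left out. Intervals and limits from fragments cover counting error only.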

Additional observations from a re-analysis of the deposited data

How the results depend on the processing

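Of the 8 genes, 5 passed in DSS against Control. The number was 8 with a pseudocount of 0.1, 3 with the low-value filter (of 3 tested), 7 with the Control and DSS libraries alone and 8 with the replicate block. It was 1 after centring, 0 with groups by the description text (limma, 4 at an unadjusted p under 0.05) and 3 to 8 when single replicates were left out. Of all 912 features 877 passed, and 899 with a pseudocount of 0.1, 571 with the filter (of 576 tested), 884 with the Control and DSS libraries alone and 867 with the block. It was 336 features after centring, 9 by the description text and 687 to 847 with single replicates left out. After centring Ltf stood at −0.26 and Fpr2 at −0.04. For DSS-BXD-H against DSS 18 of 19 features passed, 6 after centring, 8 without the libraries of conflicting description, 7 by the description text and 17 to 19 with single replicates left out. The log2 change of Retnlg was 3.17, 2.71 without the libraries of conflicting description (limma adjusted p = 0.0531) and 2.13 to 4.35 with single replicates left out. Replicate numbers did not pair the libraries: same-numbered Control and DSS libraries deviated from their group means with correlations of -0.05, -0.00 and 0.07 over 912 features, so the block result is only an alternative. With the block Cxcr2 (limma adjusted p = 0.0373), Clec4d (0.0381) and Fpr2 (0.0481) passed too. Control values of Cxcr2, Fpr1, Fpr2, Retnlg and S100a8 rest on 0 to 4 fragments per library, which limits their fold changes.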
